A study of Mus musculus with 8 samples.

Results

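The genes that write, copy and remove DNA methylation were followed in RNA-seq of mouse embryonic stem cells (mESCs) in 4 conditions. They were 9 gene rows chosen by name, out of 24062 genes in the deposited counts: Dnmt1, Uhrf1, Dnmt3a, Dnmt3b, Dnmt3l, Tet1, Tet2, Tet3 and Tdg. All 9 were among the 15313 genes that passed the filter on low counts, with between 76 counts (Tet3 in a library with both treatments) and 26411 counts (Tet1 in a Setdb1 KO library).

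In mammals, a methyl group is placed on cytosine mainly where a guanine follows (CG), and methylation of a CG-rich promoter usually goes with a silent gene. DNMT3A and DNMT3B place new methylation, helped by DNMT3L, which has no catalytic activity of its own, while DNMT1 copies the pattern onto the new strand after replication, guided there by UHRF1. The TET enzymes oxidise methylcytosine and TDG cuts out the oxidised bases, and mESCs are known for carrying both the de novo enzymes and TET1 and TET2 at once.

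Every library came from the same line, #33-6 Setdb1 conditional KO mES, grown with LIF on gelatin, so all 4 conditions share that allele and 1 line stands for each genotype. WT mESCs were not treated. UNC0642-treated mESCs received 2 µM of UNC0642, an inhibitor of the H3K9 methyltransferases G9a and GLP, for 3 days. Setdb1 KO mESCs received 800 nM 4-OHT, which switches on the recombinase that deletes Setdb1, for 5 days. UNC0642-treated Setdb1 KO mESCs, here called KO+UNC mESCs, received 4-OHT for 2 days and then UNC0642 for 3 days by their treatment label, while the protocol text describes 5 days of 4-OHT. If the label holds, comparisons of KO+UNC with Setdb1 KO mESCs cannot tell UNC0642 apart from the days of 4-OHT. The same goes for the test of whether UNC0642 acted differently with and without 4-OHT. Each condition had 2 replicates, and no library of cells with an intact allele received 4-OHT, so an effect of 4-OHT itself and the loss of Setdb1 cannot be told apart.

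Total counts per library were between 11702590 and 26807807. Setdb1, which encodes an H3K9 methyltransferase, was at 169 and 127 CPM (counts scaled to the size of the library) in WT, 130 and 86.4 in UNC0642-treated, 47.3 and 51.0 in Setdb1 KO and 61.1 and 34.1 CPM in KO+UNC mESCs, so the 4 libraries given 4-OHT were the lowest. Setdb1 fell with the replicate number in the fit (log2 -1.56 in Setdb1 KO and -1.67 in KO+UNC against WT, edgeR adjusted p = 0.0164 and 0.00593), while without it the adjusted p was 0.181 and 0.0746. The 10 marker genes of mESC identity summed to between 2263 and 4809 CPM in all libraries and none passed the test in any comparison of conditions, with Pou5f1 at 567 CPM or more. Genes, as opposed to transposable elements, gave between 82.9% and 90.8% of the counts in the 4 libraries with 4-OHT and between 94.5% and 97.2% in the others. Markers of fibroblasts summed to between 4.18 and 20.5 CPM. Markers of 2-cell-like cells rose from between 7.92 and 24.1 CPM in WT to between 551 and 1297 CPM in KO+UNC mESCs, where 6 of 6 passed the test, although reads of the Zscan4 copies among them cannot be assigned with certainty. They were at 734 and 236 CPM with UNC0642 alone and 343 and 130 CPM in Setdb1 KO mESCs, where none passed without the block. With the block 1 (Usp17lc) passed in the former and 5 in the latter, and DESeq2 on the 4 libraries compared called 6 and 5. In bulk RNA, fewer cells expressing a gene and less RNA per cell cannot be told apart.

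None of the 9 genes passed the edgeR test (adjusted p under 0.05) in any comparison of 2 conditions. Dnmt3l stood higher in all 4 libraries given 4-OHT than in all 4 others, a difference that passed in edgeR only when both 4-OHT conditions were pooled and the replicate number was in the fit. Tet1, Dnmt3b and Dnmt3a had fitted differences between replicate 1 and replicate 2 that were larger than those between conditions. The plot of the levels of the 9 genes by library shows both patterns.

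**Figure D1:**
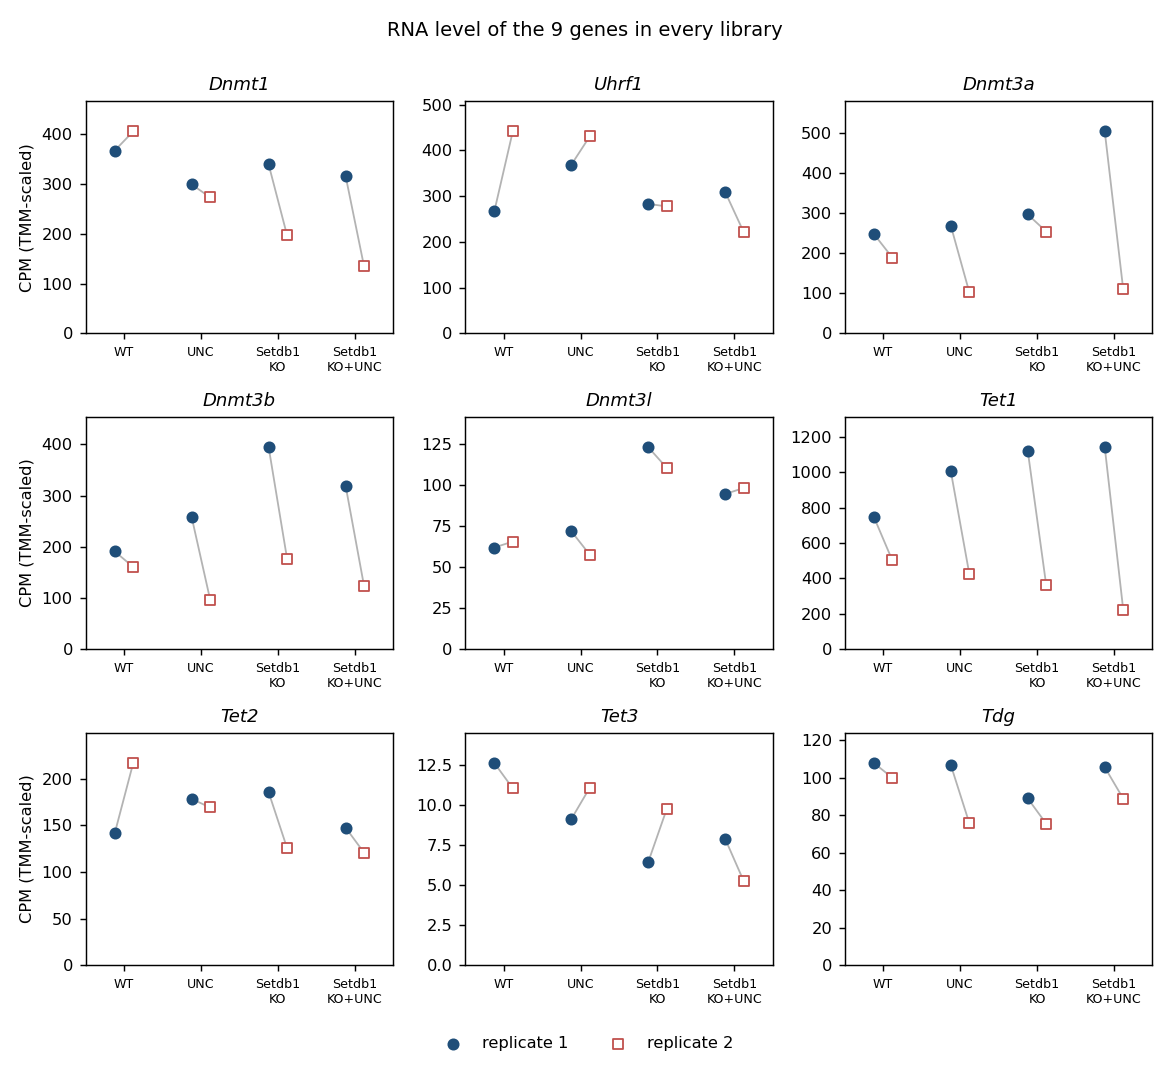
RNA level of each gene (vertical axes, CPM scaled by TMM, starting at 0) in WT, UNC0642-treated (UNC), Setdb1 KO and both-treated (Setdb1 KO+UNC, here KO+UNC) mESCs. Filled circles are replicate 1, open squares replicate 2, and a line joins the 2 libraries of a condition. Dnmt3l lies between 57.6 and 71.8 CPM in the 4 libraries without 4-OHT and between 94.5 and 123 CPM in the 4 with it, while Tet1 is higher in replicate 1 of every condition.

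Per kilobase of exon, the only scale on which different genes are compared here, Uhrf1 had the highest mean level in WT mESCs, 96.6 CPM per kb, followed by Dnmt1 at 61.3, Tet1 at 43.4 and Dnmt3b at 40.6 CPM per kb. Tdg (29.4), Dnmt3l (23.9), Dnmt3a (22.1) and Tet2 (19.5 CPM per kb) came next, and Tet3 was far lower at 1.01 CPM per kb. Reads shared by Tdg and its near copies Gm9855 and Tdg-ps cannot be assigned with certainty, so the place of Tdg is uncertain. The WT libraries of Tet1 and Dnmt3b overlapped, as did those of Dnmt3l and Dnmt3a and those of Dnmt3a and Tet2, so these neighbours in the order were not separated by their spread. Uhrf1 was first and Tet3 last by mean level in every condition, the libraries of Uhrf1 overlapping with those of Dnmt3b in both conditions with 4-OHT. Dnmt3l went from the sixth place in WT to the fourth in both of these (43.7 and 36.1 CPM per kb), and there its libraries overlapped with those of Tet1 above and Dnmt1 below it.

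Among the de novo genes, Dnmt3l (GRCm38 chr10:78041947-78063622, plus strand) had the clearest order. It was at 61.9 and 65.5 CPM in WT, 71.8 and 57.6 CPM in UNC0642-treated, 123 and 110 CPM in Setdb1 KO, and 94.5 and 98.1 CPM in KO+UNC mESCs. The Setdb1 KO libraries lay above those of every other condition, and the KO+UNC libraries lay between them and the libraries without 4-OHT. Of all genes tested, 5.44% were likewise higher in all 4 libraries with 4-OHT than in all 4 without.

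The fold change of Dnmt3l over WT was 1.83 in Setdb1 KO mESCs (log2 0.87, SE 0.36, 95% interval 0.07 to 1.67, edgeR adjusted p = 0.488). It was 1.51 in KO+UNC mESCs (log2 0.60, SE 0.35, adjusted p = 0.436) and 1.02 in UNC0642-treated mESCs (log2 0.02, 95% interval -0.77 to 0.82). Once the replicate number entered as a block, the SE of the first was 0.23 and its adjusted p was 0.0738, so neither fit called it, whereas DESeq2 on all 8 libraries with the block did (adjusted p = 0.0102, where 6.88% of genes passed). The mean of both 4-OHT conditions minus the mean of both others, a contrast added after the data were seen, was 0.72 on the log2 scale (SE 0.25, adjusted p = 0.183 by edgeR, where 3.67% of genes passed). With the block it was 0.72 (SE 0.16, 95% interval 0.36 to 1.09, adjusted p = 0.0198), where 11.2% of genes passed. This call was lost without either replicate of UNC0642-treated or of Setdb1 KO mESCs, or without replicate 2 of KO+UNC mESCs (adjusted p between 0.0539 and 0.168), the log2 difference then being between 0.64 and 0.80. Condition accounted for 94.3% of the spread of Dnmt3l over the 8 libraries and the replicate number for 1.19%, against medians of 34.6% and 31.6% over all tested genes.

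The de novo enzymes themselves showed no difference between conditions that passed. Dnmt3a (GRCm38 chr12:3806007-3914443, plus strand) was at 248 and 189 CPM in WT, 269 and 103 CPM in UNC0642-treated, 297 and 254 CPM in Setdb1 KO and 504.2 and 110 CPM in KO+UNC mESCs. The highest and nearly the lowest value were thus the 2 libraries of a single condition, and Setdb1 KO was the one condition with both libraries above both WT libraries. Its log2 difference from WT was 0.33 in Setdb1 KO mESCs (95% interval -1.23 to 1.90) and 0.49 in KO+UNC mESCs (95% interval -1.08 to 2.06).

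Dnmt3b (GRCm38 chr2:153649450-153687730, plus strand) was at 191 and 161 CPM in WT, 258 and 96.8 CPM in UNC0642-treated, 394 and 176 CPM in Setdb1 KO and 319 and 124 CPM in KO+UNC mESCs. Replicate 1 of each treated condition was above both WT libraries, and replicate 2 lay among or below the WT values. The log2 difference of Setdb1 KO mESCs from WT was 0.70 (SE 0.64, 95% interval -0.74 to 2.14, edgeR adjusted p = 0.994). On the linear scale that interval runs from 0.599 to 4.41 times the WT level, so both a decrease and a large increase lie within the error of these libraries. A transcript of Dnmt3c, a rodent copy of Dnmt3b, matched Dnmt3b over 1655 bases at 93.3% identity, and reads shared by both cannot be assigned with certainty.

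The promoters of Dnmt3l and Dnmt3b are printed because these partners in the same reaction differed in how their RNA varied, and CG is the substrate of the enzymes. Each is 250 bases before and 50 after a RefSeq start on GRCm38.p6, with CG in capitals. The single Dnmt3b start is at chr2:153649199-153649498 and the Dnmt3l starts are at chr10:78042037-78042336, chr10:78049592-78049891 and chr10:78055085-78055384, all on the plus strand.
Dnmt3b: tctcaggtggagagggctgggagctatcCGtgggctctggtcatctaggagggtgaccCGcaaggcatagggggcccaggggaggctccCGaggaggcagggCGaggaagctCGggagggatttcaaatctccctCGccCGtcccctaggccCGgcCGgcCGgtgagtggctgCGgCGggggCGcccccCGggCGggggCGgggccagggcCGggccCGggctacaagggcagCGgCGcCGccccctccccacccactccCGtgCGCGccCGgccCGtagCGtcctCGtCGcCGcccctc
Dnmt3l, start 1: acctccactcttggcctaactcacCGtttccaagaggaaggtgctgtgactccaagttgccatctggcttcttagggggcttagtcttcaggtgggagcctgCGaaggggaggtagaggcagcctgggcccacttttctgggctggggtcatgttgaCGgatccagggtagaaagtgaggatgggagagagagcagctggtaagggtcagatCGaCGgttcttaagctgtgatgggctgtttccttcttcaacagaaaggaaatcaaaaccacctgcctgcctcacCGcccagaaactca
Dnmt3l, start 2: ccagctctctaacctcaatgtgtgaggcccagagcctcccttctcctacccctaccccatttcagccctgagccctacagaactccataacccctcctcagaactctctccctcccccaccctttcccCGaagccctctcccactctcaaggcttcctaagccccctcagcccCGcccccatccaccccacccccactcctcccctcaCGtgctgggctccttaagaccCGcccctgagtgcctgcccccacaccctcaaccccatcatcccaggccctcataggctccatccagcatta
Dnmt3l, start 3: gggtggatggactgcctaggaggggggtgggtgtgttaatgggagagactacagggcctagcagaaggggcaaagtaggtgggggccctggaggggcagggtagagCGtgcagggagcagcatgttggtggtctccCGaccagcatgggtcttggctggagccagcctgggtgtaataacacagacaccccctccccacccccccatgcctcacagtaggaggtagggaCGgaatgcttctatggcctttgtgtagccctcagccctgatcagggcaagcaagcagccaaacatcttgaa

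The Dnmt3b window held 30 CG, a number that 11.7% of 32851 promoters of this length reached. The Dnmt3l windows held 6, 4 and 3 CG, and 47.9%, 38% and 31.4% of promoters held as few or fewer. The search was for the letters CG, which read the same on both strands, and 94.6% of promoters held at least 1, with a median of 7. Among the other members, Tet2 had 57 CG, Dnmt3a between 18 and 47 over 3 starts, Tdg 26, Tet3 22, Tet1 17, Uhrf1 12 and 33, and Dnmt1 between 2 and 33 over 3 starts. Gene counts do not tell which start was used, and methylation of these windows was not measured here.

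Of the maintenance pair, Dnmt1 (GRCm38 chr9:20907209-20959888, minus strand) was highest in WT. It was at 367 and 405 CPM in WT, 299 and 273 CPM in UNC0642-treated, 339 and 197 CPM in Setdb1 KO and 316 and 135 CPM in KO+UNC mESCs. All 6 treated libraries lay below both WT libraries, which 5.08% of tested genes also showed. The log2 difference from WT was -0.43 with UNC0642 (95% interval -1.57 to 0.70), -0.53 in Setdb1 KO (95% interval -1.66 to 0.61) and -0.78 in KO+UNC mESCs (95% interval -1.92 to 0.36, edgeR adjusted p = 0.487). With the block the last was -0.89 (95% interval -1.67 to -0.12, adjusted p = 0.104). In that fit Dnmt1 passed only once WT replicate 1 was left out (adjusted p = 0.0273).

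Uhrf1 (GRCm38 chr17:56303321-56323486, plus strand), whose product brings DNMT1 to hemimethylated DNA, had a Pearson r of 0.584 with Dnmt1 over the 8 libraries. Its log2 difference from WT was 0.17 with UNC0642 (95% interval -0.79 to 1.14), -0.34 in Setdb1 KO and -0.42 in KO+UNC mESCs. Only the first had a direction other than that of Dnmt1. Uhrf1 was at 267 and 441 CPM in WT, 368 and 430 CPM in UNC0642-treated, 283 and 278 CPM in Setdb1 KO and 309 and 222 CPM in KO+UNC mESCs. The range of the WT libraries held all other values but 222 CPM. Both KO+UNC libraries were below both UNC0642-treated ones, with a log2 difference of -0.59 (95% interval -1.56 to 0.38, edgeR adjusted p = 0.904). Transcripts of Gm5648 match Uhrf1 over 1590 bases at 98.3% identity.

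Among the erasers, Tet1 (GRCm38 chr10:62804570-62908996, minus strand), the main TET gene of mESCs, varied most. It was at 746 and 501 CPM in WT, 1004 and 425 CPM in UNC0642-treated, 1118 and 360 CPM in Setdb1 KO and 1141 and 224 CPM in KO+UNC mESCs. The means of the conditions were close, from 624 to 739 CPM, while the 2 libraries within a condition were far apart. The log2 difference from WT was between 0.13 and 0.24 in the 3 treated conditions, each with an SE of 0.82. With the block it was 0.034 in UNC0642-treated, -0.0090 in Setdb1 KO and -0.27 in KO+UNC mESCs (SE 0.37, 0.37 and 0.38), so its direction turned in the conditions with 4-OHT.

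Tet2 (GRCm38 chr3:133463679-133545139, minus strand) was at 142 and 217 CPM in WT, 178 and 169 CPM in UNC0642-treated, 186 and 126 CPM in Setdb1 KO and 148 and 121 CPM in KO+UNC mESCs. Its libraries overlapped between WT and every treated condition. The largest difference from WT was -0.42 on the log2 scale in KO+UNC mESCs (95% interval -1.34 to 0.50).

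Tet3 (GRCm38 chr6:83362373-83459084, minus strand), best known from the oocyte and zygote, was at 12.6 and 11.04 CPM in WT and 9.12 and 11.1 CPM in UNC0642-treated mESCs. It was at 6.44 and 9.74 CPM in Setdb1 KO and 7.89 and 5.26 CPM in KO+UNC mESCs, so both 4-OHT conditions lay below both WT libraries. The log2 difference was -0.55 in the first (95% interval -1.67 to 0.57) and -0.85 in the second (95% interval -1.98 to 0.27, edgeR adjusted p = 0.430). With the block the second was -0.86 (adjusted p = 0.146).

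Tdg (GRCm38 chr10:82629828-82650799, plus strand) had the narrowest range, 1.43-fold from the lowest to the highest library. It was at 108 and 99.9 CPM in WT, 107 and 75.7 CPM in UNC0642-treated, 88.9 and 75.4 CPM in Setdb1 KO and 106 and 88.8 CPM in KO+UNC mESCs. Both Setdb1 KO libraries were below WT, with a log2 difference of -0.34 (95% interval -1.17 to 0.50). Transcripts of Gm9855 match Tdg over 1194 bases at 99.2% identity, and those of Tdg-ps match it over 2968 bases at 98.7%. Gm9855 was counted at between 73.2 and 106 CPM and followed Tdg across the libraries (r = 0.999), and 367 bases of the exons of Tdg overlap Glt8d2 on the opposite strand, so the level of Tdg is uncertain.

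Taken comparison by comparison, none of the 9 genes passed the edgeR test of UNC0642-treated against WT mESCs, in which 0% of all genes passed, and none reached an unadjusted p under 0.05 (3.41% of genes). In Setdb1 KO against WT, 0 of 9 passed against 0.888% of genes, with 1 (Dnmt3l) at an unadjusted p under 0.05 against 7.58%. In KO+UNC against WT, 0 of 9 passed against 3.62%, with 0 at an unadjusted p under 0.05 against 16.9%. KO+UNC mESCs also gave 0 of 9 against Setdb1 KO mESCs (0% of genes) and 0 of 9 against UNC0642-treated mESCs (0.908%), both with 0 at an unadjusted p under 0.05 (4.7% and 8.23%). These comparisons share libraries.

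No member passed a test of any difference among the 4 conditions (2.04% of genes, and 10.2% at an unadjusted p under 0.05), or of whether UNC0642 acted differently with and without 4-OHT (0% and 0.777%), and 0 of 9 had an unadjusted p under 0.05 in either. DESeq2 on the 4 libraries compared called none of the 9 with UNC0642 alone (0.625% of genes), in Setdb1 KO (2.5%) or in KO+UNC mESCs (7.42%) against WT, or in KO+UNC against Setdb1 KO (0.741%) or UNC0642-treated mESCs (2.94%). In edgeR with the block 0 of 9 passed with UNC0642 alone (0.176% of genes), in Setdb1 KO (3.32%) and in KO+UNC mESCs (15.7%) against WT, and in KO+UNC against Setdb1 KO (0.124%) and UNC0642-treated mESCs (3.79%). At an unadjusted p under 0.05 that fit had 3 members in KO+UNC against WT (Dnmt3l, Dnmt1 and Tet3) and Dnmt3l in Setdb1 KO against WT and in KO+UNC against UNC0642-treated mESCs, where 32.2%, 15.8% and 17.5% of all genes reached it. In KO+UNC mESCs the share of members was thus close to that of all genes.

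**Figure D2:**
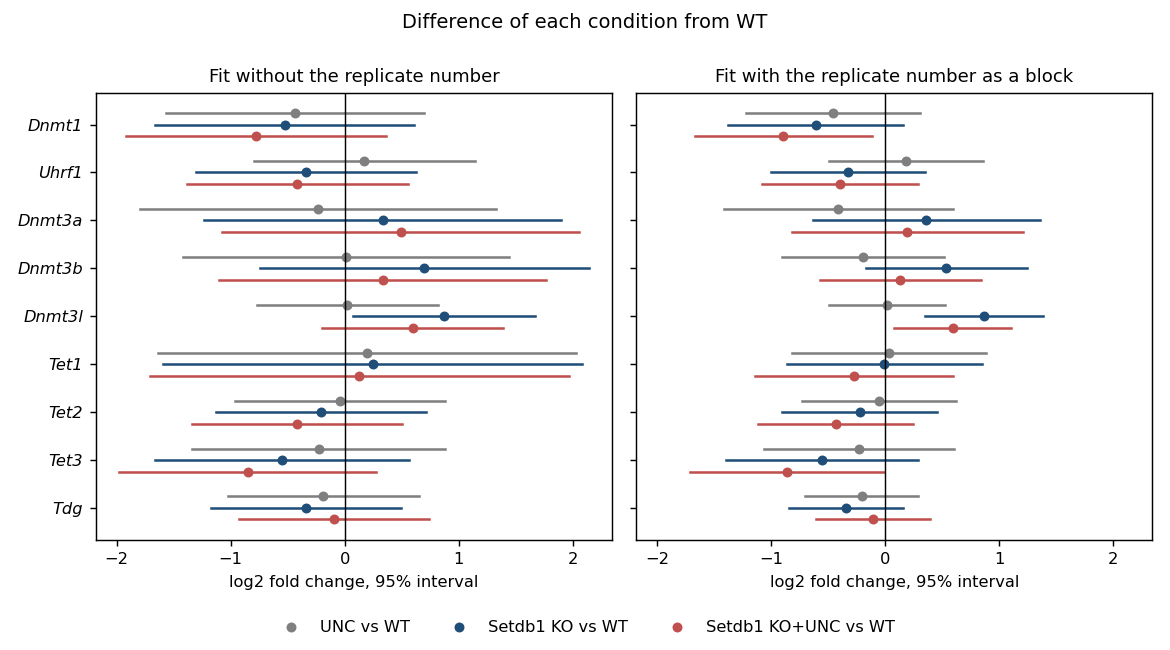
Log2 fold change of each gene over WT (horizontal axes) with its 95% interval, in UNC0642-treated (grey), Setdb1 KO (blue) and KO+UNC mESCs (red), without (left) and with (right) the replicate number as a block. All intervals cover 0 on the left except that of Dnmt3l in Setdb1 KO mESCs (0.07 to 1.67), and the block narrows those of Tet1 and Dnmt3b most visibly.

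Counted by whether libraries overlap, 1 member was apart from WT in UNC0642-treated mESCs (Dnmt1, lower), against 24.5% of genes in either direction. In Setdb1 KO mESCs 5 were apart (Dnmt3a and Dnmt3l higher, Dnmt1, Tet3 and Tdg lower), against 29.3%. In KO+UNC mESCs 3 were apart (Dnmt3l higher, Dnmt1 and Tet3 lower), against 42.1%. Against UNC0642-treated mESCs, the KO+UNC libraries were apart for 4 members (Dnmt3l higher, Uhrf1, Tet2 and Tet3 lower), against 32.1%. Against Setdb1 KO mESCs they were apart for Dnmt3l alone (lower, 25.9% of genes), by -0.28 on the log2 scale (95% interval -1.07 to 0.52).

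Tet1, Dnmt3b, Dnmt3a and Tdg were higher in replicate 1 than in replicate 2 of every condition, as were 21.8% of all tested genes. The Dnmt3a and Tdg libraries of the 2 numbers overlapped. Replicate 1 of Tet1 exceeded replicate 2 by 1.49 times in WT, 2.36 times in UNC0642-treated, 3.11 times in Setdb1 KO and 5.09 times in KO+UNC mESCs. For Dnmt3b these ratios were 1.19, 2.66, 2.24 and 2.59, and for Dnmt3a 1.31, 2.61, 1.17 and 4.58. In each gene the ratio was larger with UNC0642 and in the combined condition than in WT.

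In the fit with the block, a test added after the data were seen, replicate 1 minus replicate 2 was 1.45 for Tet1 (SE 0.27, edgeR adjusted p = 0.00614), 1.05 for Dnmt3b (SE 0.22, adjusted p = 0.00879) and 1.04 for Dnmt3a (SE 0.32, adjusted p = 0.0358) on the log2 scale. These 3 of 9 passed, all higher in replicate 1. Of all genes, 34.2% passed in either direction, close to the share of members. Those higher in replicate 1 were 14.8% of all genes, a smaller share than that of members, and the difference was not tested. Dnmt3a was no longer called without either library of UNC0642-treated or of KO+UNC mESCs, and Dnmt3b was not called without either UNC0642-treated library (adjusted p up to 0.145 and 0.0660). Tet1 stayed called whichever library was left out (adjusted p up to 0.0306). All 4 replicates 1 were above all 4 replicates 2 for Tet1 and Dnmt3b, as for 11.9% of genes.

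The other 6 members did not pass this test. The closest were Dnmt1 (log2 difference 0.50, adjusted p = 0.138) and Tdg (0.27, adjusted p = 0.202), and the value of Dnmt3l was 0.08. Nanog, Esrrb and Prdm14 of the mESC identity list were lower in replicate 1 in the same fit, as were Col1a1, Col1a2 and Col3a1 of the fibroblast list and Gata4, Sox17 and Dab2 of the primitive endoderm list and Sox3 of the primed list (19.4% of all genes). Eomes and Krt18 of the trophectoderm list were higher in replicate 1. The part of these genes in the difference between replicates was not tested.

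**Figure D3:**
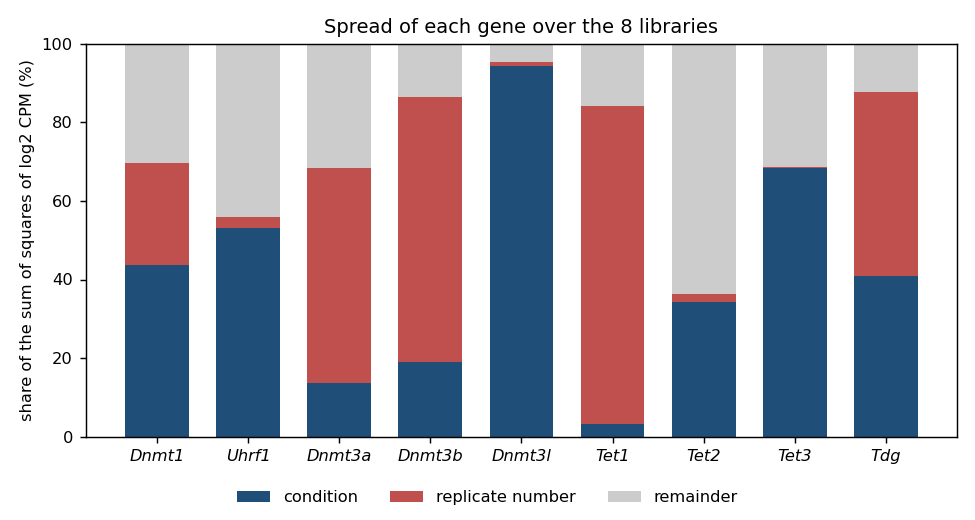
Share of the spread of each gene over the 8 libraries (vertical axis, percent of the sum of squares of log2 CPM) that goes with the condition (blue), with the replicate number (red) or with neither (grey). Condition takes 94.3% for Dnmt3l and 3.22% for Tet1, and the replicate number takes 80.9% for Tet1, 67.5% for Dnmt3b and 54.7% for Dnmt3a.

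The shares of the spread differed between members. The condition accounted for 68.5% in Tet3, 53.1% in Uhrf1 and 43.7% in Dnmt1, with the replicate number at 0.100%, 2.84% and 26.0%. In Tdg the condition accounted for 40.8% and the replicate number for 47.0%. The medians over all tested genes were 34.6% and 31.6%. For Tet2 most of the spread (63.6%) went with neither. A split over 4 conditions takes up more of the spread by itself than a split over 2 replicates, so the shares are not on an equal footing. With 4 conditions and 2 replicates a share is a description of these libraries and has no test.

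A list of 22 germline genes known to be silenced by promoter methylation was also followed, of which 21 passed the filter and Tex13a, at 0 counts, did not. The part of promoter methylation in their levels was not tested. In Setdb1 KO mESCs 8 of them rose (edgeR, against 0.888% of all genes passing) and none fell, with a median log2 difference from WT of 2.73, against -0.06 over all genes. In KO+UNC mESCs 11 rose and none fell (median 2.62, against 3.62% of all genes passing), and 8 rose against UNC0642-treated mESCs (median 2.18, against 0.908%). With UNC0642 alone none passed (median 0.28). The block raised these counts to 18, 17, 13 and 1, the last being Rpl10l, where 3.32%, 15.7%, 3.79% and 0.176% of all genes passed. The counts of 8, 11 and 8 rested on the WT and UNC0642-treated libraries: without one of the WT libraries they fell to 0 in Setdb1 KO and to 0 or 2 in KO+UNC mESCs, and without either UNC0642-treated library the third fell to 0. Without replicate 1 or replicate 2 of KO+UNC mESCs the third was 5 or 3.

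Mael, which acts in the piRNA pathway, was at 5.92 and 6.42 CPM in WT, 4.79 and 5.25 CPM in UNC0642-treated, 64.1 and 77.7 CPM in Setdb1 KO and 38.2 and 38.0 CPM in KO+UNC mESCs. The 4 libraries with 4-OHT lay far above the others, and the log2 difference from WT was 3.52 (SE 0.41, edgeR adjusted p = 0.00972) and 2.62 (SE 0.40, adjusted p = 0.00894). Taf7l, a germ cell form of a TFIID subunit, went from 2.87 and 2.60 CPM in WT to 44.5 and 51.0 CPM in Setdb1 KO (log2 4.13, SE 0.53, adjusted p = 0.0108). Slc25a31, a testis ADP/ATP carrier, went from 1.57 and 2.85 CPM to 29.8 and 44.1 CPM (log2 4.04, SE 0.55, adjusted p = 0.0120).

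Tex101, a surface protein of germ cells, went from 0.348 and 0.469 CPM in WT to 23.8 and 39.6 CPM in Setdb1 KO mESCs (log2 6.22, SE 0.82, adjusted p = 0.0114). Rpl10l, a testis copy of a ribosomal protein gene, had another order, with 5.66 and 11.7 CPM in WT, 45.3 and 60.7 CPM with UNC0642, 34.3 and 28.4 CPM in Setdb1 KO and 92.8 and 149 CPM in KO+UNC mESCs. It rose in the last (log2 3.79, SE 0.51, edgeR adjusted p = 0.00681). In the fit with the block it also rose with UNC0642 alone (log2 2.64, adjusted p = 0.0412) and in Setdb1 KO mESCs (log2 1.94, adjusted p = 0.0143). Reads of Rpl10l and of its parent gene may be hard to separate. Dnmt3l and the summed level of this list (213 CPM at most in WT, 1171 CPM at least with 4-OHT) both stood higher in the 4 libraries given 4-OHT, and methylation of the promoters was not measured.

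**Figure D4:**
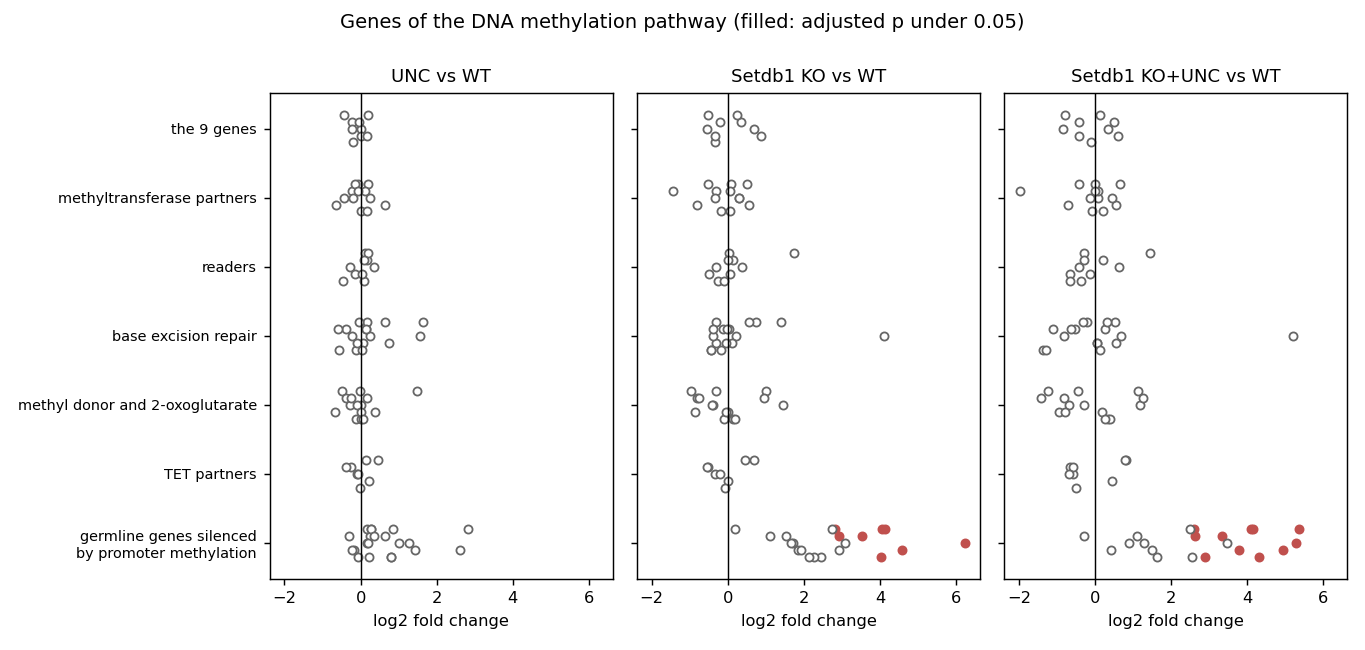
Log2 fold change over WT (horizontal axes) of the 9 genes and of the tested genes of 6 lists, 1 point per gene, in UNC0642-treated, Setdb1 KO and KO+UNC mESCs. Filled points have an edgeR adjusted p under 0.05 without the block, and they are found in the row of germline genes, 8 in Setdb1 KO and 11 in KO+UNC mESCs.

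In the 5 other lists of the pathway, together 63 tested genes, none passed without the block in the 5 comparisons of 2 conditions. The lists are partners and recruiters of the methyltransferases (13 tested), readers of methylated DNA (10), base excision repair and deamination (17), methyl donor and 2-oxoglutarate supply (15) and TET partners (8 tested, Cxxc4 not). Nanog, Prdm14 and Dppa3 are also in the mESC identity list. Their median log2 differences from WT were between -0.14 and 0.06 in Setdb1 KO and between -0.53 and 0.04 in KO+UNC mESCs, the lowest being that of the TET partners.

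With the block 4 genes of these lists passed in Setdb1 KO and 7 in KO+UNC mESCs against WT, next to 3.32% and 15.7% of all genes. Cdca7l, a relative of the HELLS partner Cdca7, was at 17.3 and 15.4 CPM in WT, 18.1 and 9.96 CPM with UNC0642, 6.77 and 5.34 CPM in Setdb1 KO and 5.40 and 2.98 CPM in KO+UNC mESCs. It fell in both 4-OHT conditions (log2 -1.45 and -2.04, edgeR with the block, adjusted p = 0.0480 and 0.00642), while without the block its adjusted p was 0.411 and 0.0873. Mbd1, a reader of methylated CG, was at 7.23 and 16.1 CPM in WT and 41.9 and 36.3 CPM in Setdb1 KO mESCs and rose with the block (log2 1.88, adjusted p = 0.0227), as it did in KO+UNC mESCs (23.3 and 40.6 CPM, log2 1.48, adjusted p = 0.0248).

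Of the repair list, Gadd45g, a stress gene linked to active demethylation, was at 0.348 and 0.397 CPM in WT and at 1.02 and 12.1 CPM in Setdb1 KO mESCs (log2 3.83 with the block, adjusted p = 0.0376), and at 2.28 and 25.7 CPM in KO+UNC mESCs (log2 4.95, adjusted p = 0.00642). In both conditions its replicate 2 was far above its replicate 1. Apobec3, a cytidine deaminase known for restricting retroviruses, fell from 98.4 and 110 CPM in WT to 47.2 and 33.6 CPM in KO+UNC mESCs (log2 -1.39, adjusted p = 0.0166).

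Of the methyl donor and 2-oxoglutarate list, Ahcy, which clears S-adenosylhomocysteine, fell in KO+UNC mESCs from 409 and 515 CPM in WT to 204 and 186 CPM (log2 -1.23, edgeR with the block, adjusted p = 0.0104), and its relative Ahcyl1 from 245 and 127 CPM to 88.3 and 52.1 CPM (log2 -1.39, adjusted p = 0.0144). No TET partner passed in either fit.

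Some markers of other cell states were also higher with 4-OHT. Otx2, of the list for primed pluripotent cells, was at 60.4 and 32.9 CPM in WT, 67.6 and 25.8 CPM with UNC0642, 322 and 228 CPM in Setdb1 KO and 118 and 155 CPM in KO+UNC mESCs, and rose with the block in both (adjusted p = 0.00851 and 0.0225). Fgf5 of the same list rose from at most 0.469 CPM in WT (1 and 13 counts) to 13.7 and 2.24 CPM in KO+UNC mESCs (edgeR adjusted p = 0.0493). It was at 13.6 and 5.06 CPM in Setdb1 KO mESCs (edgeR with the block, adjusted p = 0.0319). With UNC0642 alone Fgf5 was at 1.60 and 1.87 CPM, also above both WT libraries. The 6 genes of this list summed to between 49.5 and 76.5 CPM in WT, 35.3 and 87.6 with UNC0642, 255 and 344 in Setdb1 KO and 150 and 164 CPM in KO+UNC mESCs. Otx2 made up most of this sum in every library, so its order across conditions, like that of Dnmt3l, is mainly the order of Otx2. Fgf15 of the list was lower in KO+UNC mESCs (2.28 and 1.47 CPM) than in WT (4.70 and 7.25 CPM). With the block 4 of the 6 genes had values above WT in Setdb1 KO and 3 of 6 in KO+UNC mESCs. The other 4 genes of the list did not pass in the pairwise comparisons, and the part of these cell states in the level of Dnmt3l was not tested.

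Of the other marker lists, the summed level in WT and in KO+UNC mESCs was between 154 and 230 and between 121 and 221 CPM for primitive endoderm, and between 75.9 and 82.2 and between 27.1 and 67.9 CPM for trophectoderm, where Cdx2 and Elf5 were at 0.485 CPM or less in all libraries. In UNC0642-treated and Setdb1 KO mESCs these sums were 211 and 242 and 191 and 157 CPM for primitive endoderm, and 46.8 and 54.3 and 132 and 59.3 CPM for trophectoderm. Over both 4-OHT conditions, where Dnmt3l was called in the fit with the block, the same fit called Krt8 (log2 1.34, edgeR adjusted p = 0.0184) and Krt18 (1.03, adjusted p = 0.0411) of the trophectoderm list higher and Gata4 (-1.07, adjusted p = 0.0198) and Dab2 (-2.05, adjusted p = 0.0128) of the primitive endoderm list lower. Their part in the Dnmt3l difference was not tested. With the block Gata4 of the first was lower in KO+UNC than in UNC0642-treated mESCs (log2 -1.44, edgeR adjusted p = 0.0484) and Eomes of the second lower than in WT (log2 -1.77, adjusted p = 0.0347). Lum of the fibroblast list, at 0 CPM in both WT libraries and 2.91 and 1.43 CPM in KO+UNC mESCs, passed with the block (adjusted p = 0.0198), and Postn was at 0.841 CPM or less.

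Of 13098 genes with a mean of at least 1 CPM, those whose level followed a member most closely over the 8 libraries were Cnksr3 (Pearson r = 0.979) and Ldoc1 (0.978) for Dnmt3l, Ddx46 (0.992) and Nup50 (0.990) for Tet1, and Cbx5 (0.987) and Mir421 (0.975) for Dnmt3b. They were Fam115c (0.973) and Akr1b8 (0.955) for Dnmt3a, Nav1 (0.990) and Dysf (0.982) for Dnmt1, and C2cd3 (0.964) and Kank4 (0.961) for Uhrf1. Rrp1b (0.964) and 1700030J22Rik (0.963) followed Tet2, Gstm7 (0.998) and Magee1 (0.980) followed Tet3, and Gm9855 and Sae1 (0.964) followed Tdg. The 8 libraries are 4 conditions times 2 replicate numbers, so for Tet1, Dnmt3a and Dnmt3b likeness reflects the replicate difference as well. Cnksr3, which encodes a signalling scaffold, and Ldoc1, a gene derived from a retrotransposon, were higher by 0.98 and 1.25 on the log2 scale over both 4-OHT conditions in the fit with the block, a description, since they were picked for their likeness to Dnmt3l.

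Between members, the highest correlations over the 8 libraries were those of Dnmt3a with Dnmt3b (r = 0.884) and of Dnmt3b (0.846) and Dnmt3a (0.795) with Tet1, the 3 genes called between replicate numbers. Close to the last value were those of Uhrf1 with Tet2 (0.792), Dnmt1 with Tet2 (0.765) and Dnmt1 with Tet1 (0.746). Dnmt3l had r = 0.379 with Dnmt3a, 0.530 with Dnmt3b and 0.0395 with Tet1, and its lowest value was with Tet3 (-0.741). These values describe 8 libraries that share conditions and replicate numbers and carry no test.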

How the data were processed

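Poly(A) RNA of 8 libraries of mESCs, 2 biological replicates for each of 4 conditions, was sequenced. The authors trimmed reads with Trim Galore 0.3.7, mapped them to mm10 with TopHat and summarised them with TEtranscripts. The deposited files hold the resulting raw counts of genes and of subfamilies of transposable elements. The gene annotation and the strand setting are not given in the sources used here. Every count column was matched to a labelled sample (0 columns were left unmatched).

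From the counts, filterByExpr (with 10 as the minimum count and 15 as the minimum total) left 15313 of 24062 genes and 932 of 1153 subfamilies, scaled by TMM and tested on all 8 libraries with edgeR 4.0.16 (quasi-likelihood, R 4.3.3). P-values were adjusted by Benjamini-Hochberg over all tested rows and called at 0.05. CPM are scaled by TMM, and intervals are 95% from the fit. Likeness used log2 CPM with a prior count of 2. Alternatives were a replicate block, DESeq2 1.42.0, other normalizations and filters, a prior count of 2 and leaving out each library. Plots were drawn with matplotlib 3.10.9.

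The labels number the replicates but do not say what a number shares. The deviations of same-numbered libraries from their condition means correlated in all 6 pairs of conditions (r between 0.285 and 0.663), so the numbers were treated as pairing on this evidence from the data. Total counts were between 11702590 and 26807807, with 76 counts or more for each member. The SE of a member did not follow its counts. For UNC0642-treated against WT mESCs it was 0.82 for Tet1, with the highest count, and 0.49 for Tet3, with the lowest. The edgeR p-values rest on a spread pooled over the 4 conditions, each with 2 libraries, all of 1 line. With the block, that spread is what remains after the replicate number is taken out.

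The members, the lists and the rules for naming genes were chosen with earlier results of these data known. From each list, genes that passed with or without the block in a comparison of 2 conditions are named, at most 5 per list by the smallest p, and for each member the 2 genes with the highest Pearson r among genes with a mean of at least 1 CPM. Exon lengths and positions are those of the GRCm38 annotation, and promoters are from RefSeq. The values of 1 gene are not reported here.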

Additional observations from a re-analysis of the deposited data

How the results depend on the processing

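The direction of the members' differences held under no expression filter, under genes only and under a prior count of 2, and no member was called there. With the replicate block, log2 differences turned in Dnmt3a for KO+UNC against Setdb1 KO (-0.17), in Dnmt3b for UNC0642-treated against WT (-0.19), and in Tet1 for Setdb1 KO (-0.0090) and KO+UNC (-0.27) against WT. DESeq2 with the block gave -0.13, -0.22, -0.020 and -0.25 for these, and -0.0075 for Dnmt3l in UNC0642-treated against WT. For that comparison DESeq2 gave -0.017 for Dnmt3b with 4 and with 8 libraries, and -0.0019 and -0.00016 for Dnmt3l, edgeR on 4 libraries gave -0.0058 for Dnmt3b, and RLE scaling gave -0.017 for Dnmt3b and -4.4e-05 for Dnmt3l. Scaling to total counts moved the median gene from -0.06 to -0.23 in KO+UNC and to -0.12 in Setdb1 KO against WT, and from -0.05 to -0.26 in KO+UNC against UNC0642-treated mESCs. It gave Dnmt3a -0.056 (KO+UNC against Setdb1 KO), Dnmt3b -0.027 (UNC0642-treated against WT), Tet1 -0.15 (KO+UNC against WT) and Tdg -0.10 (KO+UNC against UNC0642-treated). The cause of these turns was not tested.

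Called members numbered 1 (Dnmt3l) in DESeq2 with the block for Setdb1 KO against WT (6.88% of genes) and for any difference. For both 4-OHT conditions against both others, 1 was called with the block in edgeR (11.2% of genes) and in DESeq2 (adjusted p = 0.000401). The shares of all genes for the other DESeq2 tests with the block, and for fits with 1 library left out, were not counted. The block, which pairs replicate numbers, changed no other member's call. With the block and 1 library left out, calls ranged from 0 to 1 for KO+UNC against WT, from 0 to 3 for both 4-OHT conditions (3 without WT replicate 1, 2 without WT replicate 2), and from 1 to 3 between replicate numbers. Of the germline list, the block called 1, 18, 17, 1 and 13 genes in UNC0642-treated, Setdb1 KO and KO+UNC against WT and in the last against Setdb1 KO and UNC0642-treated mESCs, and DESeq2 on 4 libraries 1, 13, 13, 2 and 10. Leaving out 1 library gave from 0 to 8, from 0 to 12 and from 0 to 8 for Setdb1 KO and KO+UNC against WT and for KO+UNC against UNC0642-treated mESCs. Of the 5 other lists, the block called 4, 7 and 3 and DESeq2 1, 2 and 1 in Setdb1 KO and KO+UNC against WT and in the latter against UNC0642-treated mESCs.

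Without 1 library, log2 differences ran as follows where they turned. UNC0642-treated against WT gave Dnmt3a -1.08 to 0.27, Dnmt3b -0.86 to 0.53, Dnmt3l -0.14 to 0.14, Tdg -0.45 to 0.012, Tet1 -0.55 to 0.66, Tet2 -0.32 to 0.32 and Uhrf1 -0.14 to 0.61. Setdb1 KO against WT gave Tet1 -0.79 to 0.82, Tet2 -0.52 to 0.13 and Uhrf1 -0.66 to 0.062. KO+UNC against WT gave Dnmt3a -0.99 to 1.21, Dnmt3b -0.51 to 0.87, Tdg -0.23 to 0.027, Tet1 -1.48 to 0.88 and Uhrf1 -0.74 to 0.0080. Against Setdb1 KO it gave Dnmt1 -0.9998 to 0.27, Dnmt3a -1.33 to 0.91, Dnmt3b -1.22 to 0.32, Tet1 -1.73 to 0.92, Tet2 -0.45 to 0.091, Tet3 -0.62 to 0.040 and Uhrf1 -0.34 to 0.18. Against UNC0642-treated mESCs it gave Dnmt1 -1.09 to 0.15, Dnmt3a -0.76 to 1.57, Dnmt3b -0.53 to 1.18, Tdg -0.12 to 0.35 and Tet1 -1.68 to 0.69. A condition left with 1 library was assumed to vary like the others. With 2 libraries a condition, the median SE of a member was 0.50 on the log2 scale, and 0.31 with the block.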
